A study of Mus musculus with 43 samples.

Results

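The regions described here are 356 stretches of chromatin, of 59937 compared, that were called as accessible more often in mouse intestinal organoids given transforming growth factor beta 1 (TGFB1) than in organoids given vehicle. They were chosen from 18 lists of ATAC-seq peaks by presence alone. Overlapping peaks on chromosomes 1 to 19 were merged, and a region was kept when at least 2 of the 3 TGFB1 lists held a peak there in each of 3 conditions and no more than 3 of the 9 vehicle lists did. Exchanging TGFB1 and vehicle in the same rule gave 620 vehicle-favoured regions, which serve as the comparison. Presence in the lists chose both sets, so the counts of lists given for them are a description, and no test is made of them.

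Primary intestinal organoids of C57BL/6 wild-type mice were compared with and without TGFB1, before and after irradiation. There were 3 conditions. In D7 Non-IR the organoids were never irradiated and were harvested on day 7. In D7 IR a dose of 4 Gy was delivered on day 4 before harvest on day 7, and in D11 IR the same dose on the same day preceded harvest on day 11. In every condition the cultures received vehicle or 2 ng/mL of TGFB1 on day 6 for 24 h, so the D11 organoids were collected days after the exposure. For the D11 ATAC-seq libraries the collection day stands in the title and not in the treatment text. Each of the 6 groups had 3 ATAC-seq and 3 RNA-seq libraries. Nothing in the descriptions says that replicates came from separate mice or cultures, so p-values measure the spread between these libraries, which may be technical.

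ATAC-seq uses a transposase that cuts and tags DNA where it is not packed against nucleosomes, and a peak marks a place with more cuts than its surroundings. TGFB1 is a secreted ligand that binds a pair of receptor kinases, and these phosphorylate SMAD2 and SMAD3, which join SMAD4 and bind DNA together with other transcription factors such as AP-1. In the intestinal epithelium the pathway is known for restraining proliferation and for a part in repair after injury. Organoids grown from crypts consist of epithelium, and irradiation damages their dividing cells before they regrow.

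The lists held between 20452 and 49291 peaks, all of a single width, and read depth is not given, so a missing peak is a place not called and not a closed one. The D11 IR vehicle lists held 30725 to 49291 and the D7 IR TGFB1 lists 20452 to 28084. The list of D7 Non-IR TGFB1 replicate 2 held peaks on the autosomes only, which is why sex chromosomes were left out. Without that library the rule, applied to the remaining lists, gave 241 regions. Each peak carries the authors' score, read as the −log10 of its q-value. Scores are read below within a list, as the percentile of a peak among the autosomal peaks of that list. Coordinates are those of the peak files, read as mouse build mm9.

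The 356 regions differed in how widely they were held. A peak was present in all 9 TGFB1 lists at 46 of them, in 8 at 134, in 7 at 133 and in 6 at 43. On the vehicle side, 37 regions had no peak in any of the 9 lists, 51 had 1, 104 had 2 and 164 had the permitted 3. The TGFB1-favoured regions thus crowded the vehicle limit of the rule. Just outside that limit stood 261 regions with 4 vehicle lists that met the TGFB1 side of the rule. The median over regions of the mean score percentile in the TGFB1 lists was 34.2 for the 164 just inside and 35.0 for the 261 just outside. A further 741 regions kept to the vehicle limit and fell 1 TGFB1 list short in a single condition, which was D7 IR for 514, D7 Non-IR for 153 and D11 IR for 74.

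Only 1 region had a peak in all 9 TGFB1 lists and in no vehicle list. It lay at chr4:97775100-97776194, was 1095 bp wide and merged 11 peaks. Its scores in TGFB1 replicates 1 to 3 were 18.1, 10.8 and 5.89 at D7 Non-IR, 5.53, 11.5 and 3.94 at D7 IR, and 4.06, 5.56 and 4.53 at D11 IR. Within their lists the highest of these peaks, in D7 Non-IR replicate 1, stood at percentile 74.7 and the lowest, in D11 IR replicate 1, at percentile 7.46. The region that separated the treatments most completely by presence was therefore a low-ranking peak in several of the lists that held it.

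The next regions by the number of TGFB1 lists minus vehicle lists were ranked by their mean percentile. The region at chr4:134531088-134531745 lacked a peak only in D7 Non-IR TGFB1 replicate 2 among the TGFB1 lists and had none in the vehicle lists. Its scores were 9.26 and 7.04 in D7 Non-IR replicates 1 and 3, 7.72, 10.9 and 12.4 at D7 IR, and 12.2, 18.04 and 13.9 at D11 IR. These peaks stood between percentile 33.7 and 76.4 of their lists, a higher and narrower range than at the first region.

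The region at chr7:35714842-35715534 was in all 9 TGFB1 lists and in 1 vehicle list, that of D7 IR replicate 1, where its score of 2.68 stood at percentile 4.74. In the TGFB1 lists it scored 16.8, 13.3 and 14.6 at D7 Non-IR, 3.30, 9.47 and 9.16 at D7 IR, and 5.28, 12.6 and 11.7 at D11 IR. It also had a neighbour of the same kind: a second TGFB1-favoured region ended at position 35729227, and the pair spanned 14.4 kb.

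At chr1:21489727-21490410 the standing of the peak in its lists differed between conditions. The scores were 4.18 and 3.24 in D7 Non-IR TGFB1 replicates 1 and 2, with no peak in replicate 3, and these stood at percentiles 10.3 and 4.67. At D7 IR the scores of 5.80, 8.36 and 6.51 stood at percentiles 40.8 to 50.3. At D11 IR the scores of 27.2, 30.5 and 22.7 stood at percentiles 85.4 to 91.6, among the highest-ranking peaks of those lists, while no vehicle list held a peak.

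The region at chr7:151248429-151249163 had its best-ranked peak at D7 Non-IR instead. It scored 25.04 in D7 Non-IR TGFB1 replicate 1, at percentile 84.7, and 6.13 and 9.43 in replicates 2 and 3. At D7 IR it scored 4.43, 9.53 and 3.90, and at D11 IR 4.46 and 10.4 in replicates 1 and 3 with no peak in replicate 2. The D7 Non-IR peaks of replicates 2 and 3 stood at percentiles 30.5 and 49.7. At D7 IR the percentiles were 24.2, 57.0 and 13.2, and at D11 IR they were 11.4 and 64.5. The best-ranked peak of this region thus came from 1 library, and no order of conditions is read from it.

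The other 5 of the first 10 regions lay at chr18:80745323-80746086, chr5:137186402-137187162, chr8:27866741-27867446, chr14:28675321-28676039 and chr5:90495092-90495874. All but the chr5:137186402-137187162 region had 8 TGFB1 lists and no vehicle list. That region had all 9 and 1 vehicle list, D11 IR replicate 2, with a score of 3.68 at percentile 10.1. Their highest scores were 17.6, 11.3, 11.2, 12.8 and 17.1 in the order given.

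**Figure D1:**
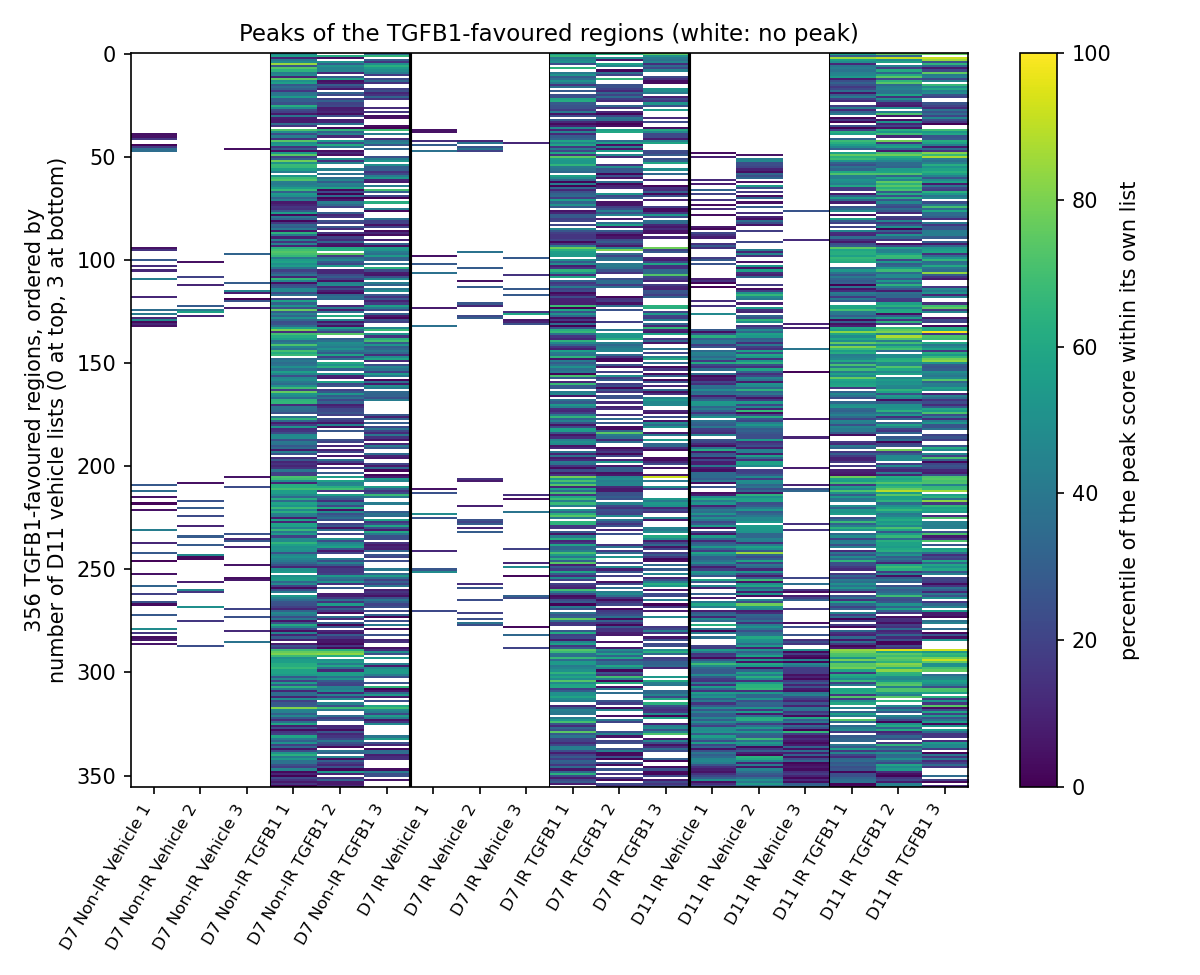
Each row is 1 of the 356 TGFB1-favoured regions and each column a library; colour gives the percentile of the region's peak among the scores of its own list, and white marks no peak. The TGFB1 columns are mostly filled, as the rule requires. The D7 vehicle columns are nearly empty, though the rule limits vehicle peaks only over the 3 conditions together. Rows below the first 48 carry peaks in the D11 vehicle columns, where 223 regions were in 2 or 3 lists.

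By library, the vehicle lists of the 2 collection days differed. At D7 Non-IR, vehicle replicates 1 to 3 held 41, 23 and 21 of the 356 regions and TGFB1 replicates held 347, 292 and 250. At D7 IR the vehicle lists held 18, 28 and 22, and the TGFB1 lists 331, 253 and 241. At D11 IR the vehicle lists held 229, 274 and 95, and the TGFB1 lists 319, 337 and 305. The D7 vehicle lists thus held 5.06% to 11.5% of the set. The D11 vehicle lists held 64.3%, 77.0% and 26.7%, against 64.0%, 73.2% and 47.4% of all 59937 regions.

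**Figure D2:**
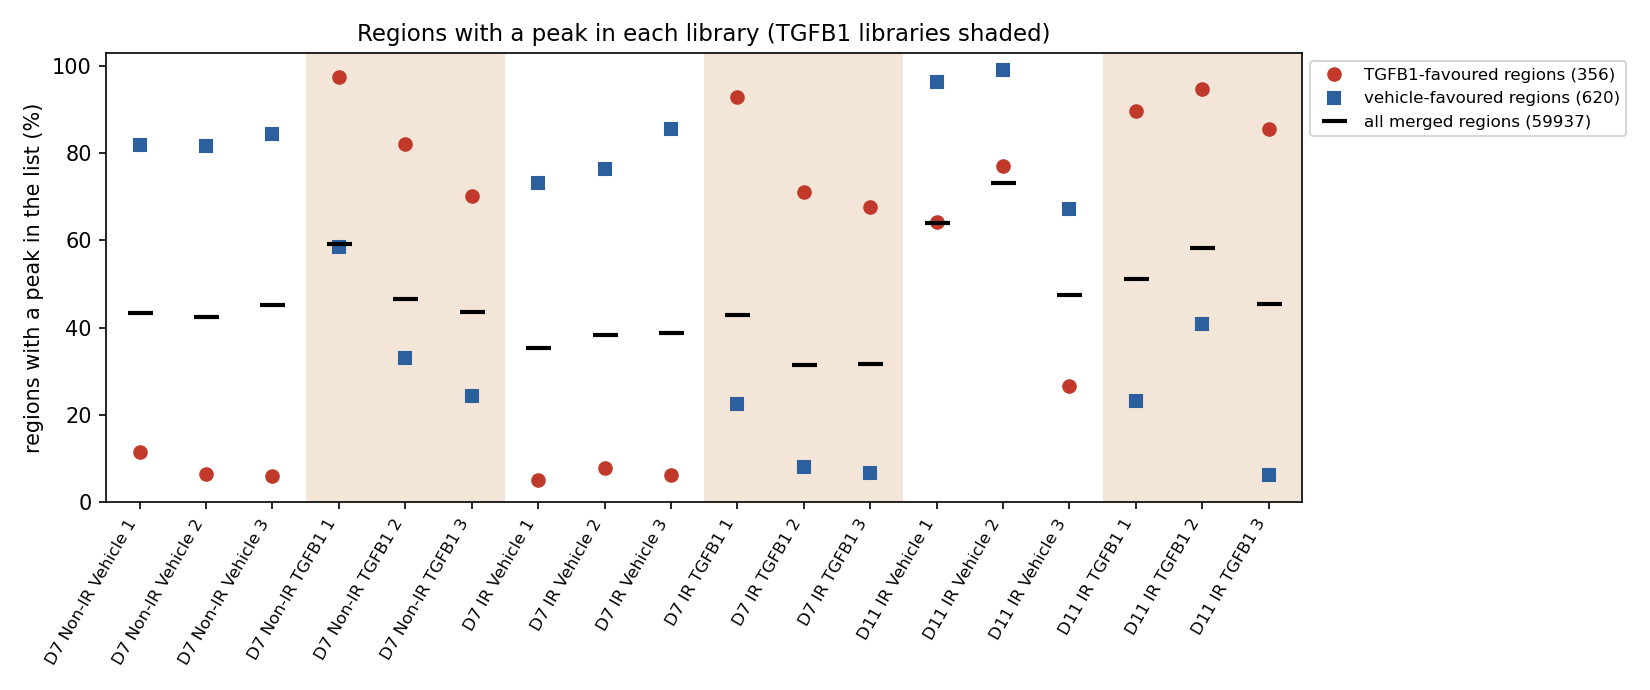
Share of regions with a peak in each of the 18 lists, for the 356 TGFB1-favoured regions (circles), the 620 vehicle-favoured regions (squares) and all 59937 regions (dashes), with TGFB1 libraries shaded. The circles stay at or below 11.5% in the 6 D7 vehicle lists and reach 64.3% and 77.0% in D11 IR vehicle replicates 1 and 2.

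The limit of 3 vehicle lists was spent mostly at day 11. Of the 751 vehicle peaks that the 356 regions had, 598 (79.6%) were in D11 lists, whereas D11 lists held 43.1% of the vehicle peaks of all regions. No D7 vehicle list held a peak at 222 regions, and only 2 regions had as many as 3 of the 6. At D11, 48 regions had no vehicle list, 85 had 1, 156 had 2 and 67 had all 3. All 67 of these had no D7 vehicle peak, because the limit left room for none. In the vehicle-favoured set, 102 of 620 regions (16.5%) were in 2 or 3 D11 lists of the other treatment, against 223 of 356 (62.6%) here. Of all regions the D11 vehicle lists held a mean of 61.5% and the D11 TGFB1 lists 51.6%. The rule used these lists, and nothing is read from the distance between the sets. With equal numbers of peaks per list, the regions then chosen had 38.5% of their vehicle peaks in D11 lists, against 33.8% for all regions.

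The balance of lists in the set differed between conditions. The rule allows this, because its vehicle limit is counted over all conditions together. These lists therefore cannot decide whether the preference for TGFB1 holds in each condition. Counting lists within a condition, TGFB1 lists outnumbered vehicle lists at 355 regions and equalled them at 1 at D7 Non-IR. They outnumbered them at all 356 at D7 IR. At D11 IR they outnumbered them at 241, equalled them at 94 and were fewer at 21, and 46 regions had a peak in all 6 D11 lists. Over all 59937 regions, TGFB1 lists outnumbered vehicle lists at 14848 and were fewer at 7213 at D7 Non-IR. At D7 IR they outnumbered them at 9395 and were fewer at 11779. At D11 IR they outnumbered them at 9421, equalled them at 28923 and were fewer at 21593. The general balance thus leaned to TGFB1 at D7 Non-IR and to vehicle at D7 IR and D11 IR. The rule used these lists, and nothing is read from the distance between the counts; the set is called by its rule.

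**Figure D3:**
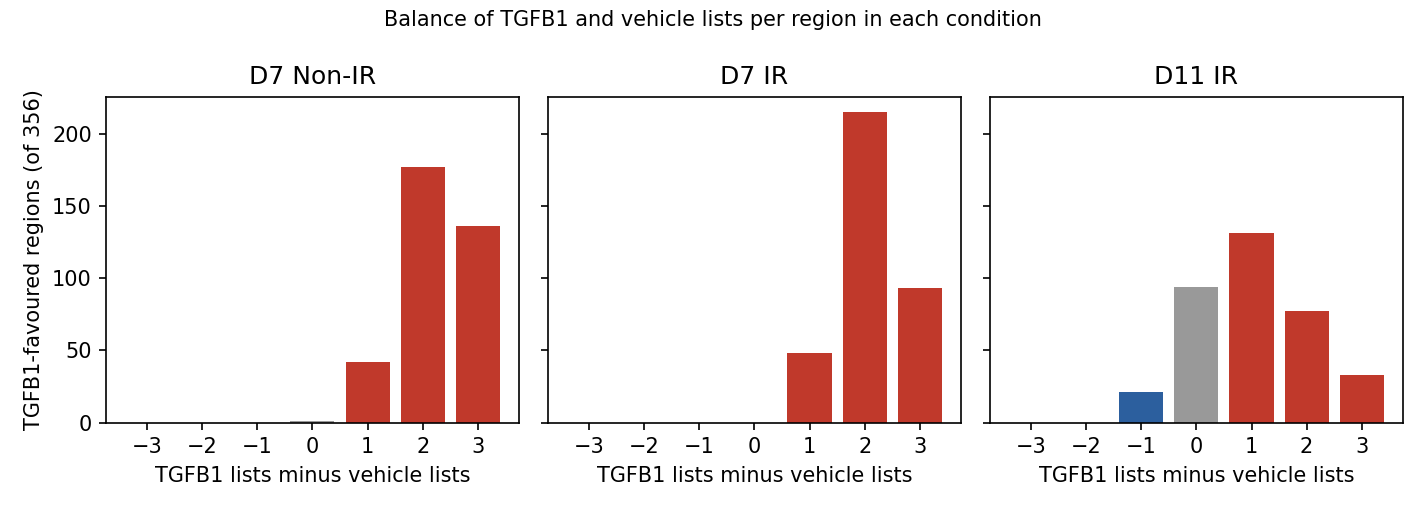
Number of the 356 TGFB1-favoured regions by the number of TGFB1 lists minus vehicle lists that held a peak, in each condition. At D7 Non-IR and D7 IR the commonest balance was 2 (177 and 215 regions), and at D11 IR it was 1 (131 regions), with 94 regions at 0 and 21 at −1.

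Complete separation, all 3 TGFB1 lists and none of the 3 vehicle lists, was the exception in each condition. It held for 136 regions at D7 Non-IR (38.2%; all regions 1.34%), for 93 at D7 IR (26.1%; all regions 0.751%) and for 33 at D11 IR (9.27%; all regions 1.12%). The rule used these lists, so nothing is read from the distance to the share over all regions. Both D7 conditions were separated at 38 of the regions, of 40 such regions in all. D7 Non-IR and D11 IR were separated at 15, of 49 in all, and D7 IR and D11 IR at 8, of 17. A further 154 of the regions were separated in none of the 3 conditions. In the vehicle-favoured set the corresponding complete separations numbered 47 (all regions 0.32%), 138 (1.23%) and 170 (2.57%), so there D11 IR had the most and D7 Non-IR the fewest.

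The 3 regions with the highest mean percentile among those just inside the limit show the D11 pattern. At chr1:159563490-159564221 no D7 vehicle list held a peak, and the D11 IR vehicle lists gave scores of 13.8, 9.34 and 11.0, at percentiles 49.1 to 55.5. The TGFB1 lists gave 15.0, 12.7 and 4.82 at D7 Non-IR, 11.6, 7.78 and 7.59 at D7 IR, and 25.8, 36.6 and 23.1 at D11 IR, the last 3 at percentiles 84.0 to 94.5. This region was thus present in all 6 D11 lists.

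The region at chr14:66497423-66498313 was likewise in all 6 D11 lists and in no D7 vehicle list, with D11 IR vehicle scores of 9.30, 5.92 and 3.04. The region at chr13:18835615-18836254 had peaks in D11 IR vehicle replicates 1 and 2 and in D7 Non-IR vehicle replicate 3, the last with a score of 3.43 at percentile 5.55. Just outside the limit, chr6:112160421-112161123 was in all 9 TGFB1 lists with a mean percentile of 73.5 and was kept out by 4 vehicle lists, 3 of them at D11. At chr18:33651192-33651918 and chr18:55783556-55784267 the mean percentiles were 64.4 and 61.9, also with 4 vehicle lists.

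To look at the pattern in libraries that had no part in a choice, the rule was applied to 2 conditions at a time, with at most 2 of their 6 vehicle lists, and the chosen regions were looked up in the condition left out. These wider sets overlap the 356 but are not the same. The choice on both D7 conditions gave 1106 regions and included 354 of the 356, which made up 32.0% of it. The choice looked up at D7 Non-IR gave 499 regions, 254 of them members (50.9%). The choice looked up at D7 IR gave 1279 regions, 239 of them members (18.7%). The shares below thus describe these wider sets and not the 356 alone. The boundaries of merged regions came from all 18 lists. The share of chosen regions with a peak was compared over 3 against 3 libraries by an exact two-sided permutation test, whose smallest possible p is 0.1, so no comparison could reach 0.05.

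Regions chosen on D7 IR and D11 IR were held more often by TGFB1 than by vehicle libraries at D7 Non-IR. Of the 499 regions, the TGFB1 libraries held 77.4%, 52.1% and 45.9%, a mean of 58.5% ± 16.7 (SD, n = 3). The vehicle libraries held 19.8%, 16.0% and 16.8%, a mean of 17.6% ± 2.01 (SD, n = 3). The groups did not overlap, and the difference of 40.9 percentage points had an exact permutation p of 0.1, or 0.2 after Benjamini-Hochberg adjustment over 6 comparisons. Over all 59937 regions the TGFB1 lists were also higher, by 6.08 points.

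Regions chosen on D7 Non-IR and D11 IR showed a smaller difference at D7 IR. Of 1279 regions, the TGFB1 libraries held 39.2%, 19.7% and 17.7% (mean 25.5% ± 11.8, SD, n = 3) and the vehicle libraries 13.1%, 16.3% and 13.8% (mean 14.4% ± 1.67, SD, n = 3). The groups did not overlap, though TGFB1 replicates 2 and 3 stood close to the highest vehicle library. The difference was 11.2 points (exact permutation p = 0.1, adjusted 0.2), and without TGFB1 replicate 1 it was 4.34 points. Of all regions the same TGFB1 libraries held 42.9%, 31.5% and 31.5% (mean 35.3%), and the vehicle libraries a mean of 37.5% (TGFB1 minus vehicle −2.2 points). In each D7 IR library, of either treatment, the chosen regions were thus held less often than all regions.

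At D11 IR the regions chosen on both D7 conditions had similar mean shares in the 2 treatments, with a wide spread between libraries. The vehicle libraries held 81.6%, 88.4% and 58.1% of the 1106 regions (mean 76.1% ± 15.9, SD, n = 3) and the TGFB1 libraries 77.9%, 83.7% and 69.7% (mean 77.1% ± 7.04, SD, n = 3). The groups overlapped, and the difference was 1.05 points (exact permutation p = 0.9, adjusted 0.9). It became −7.91 points without vehicle replicate 3 and −2.25 points without TGFB1 replicate 2. Over all regions the vehicle lists were ahead by 9.95 points (TGFB1 minus vehicle −9.95).

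With the lists as deposited, each D11 vehicle library taken singly thus held more than 58% of the D7-chosen regions. The same libraries held 64.0%, 73.2% and 47.4% of all regions. With 19907 peaks from every list the D11 vehicle libraries held 48.3% to 50.8% of the regions then chosen. A comparison group of 21791 regions was in no more than 2 of the 6 D7 vehicle lists and in at least 1 D7 list, but was not chosen. The D11 vehicle libraries held 44.7%, 56.4% and 20.5% of that group, and the D11 TGFB1 libraries 27.5%, 35.7% and 21.4%. In each D11 library, of either treatment, the D7-chosen share was the higher one. The chosen regions are in at least 4 TGFB1 lists by construction and the comparison group need not be, and that difference in how widely they were called was not matched.

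**Figure D4:**
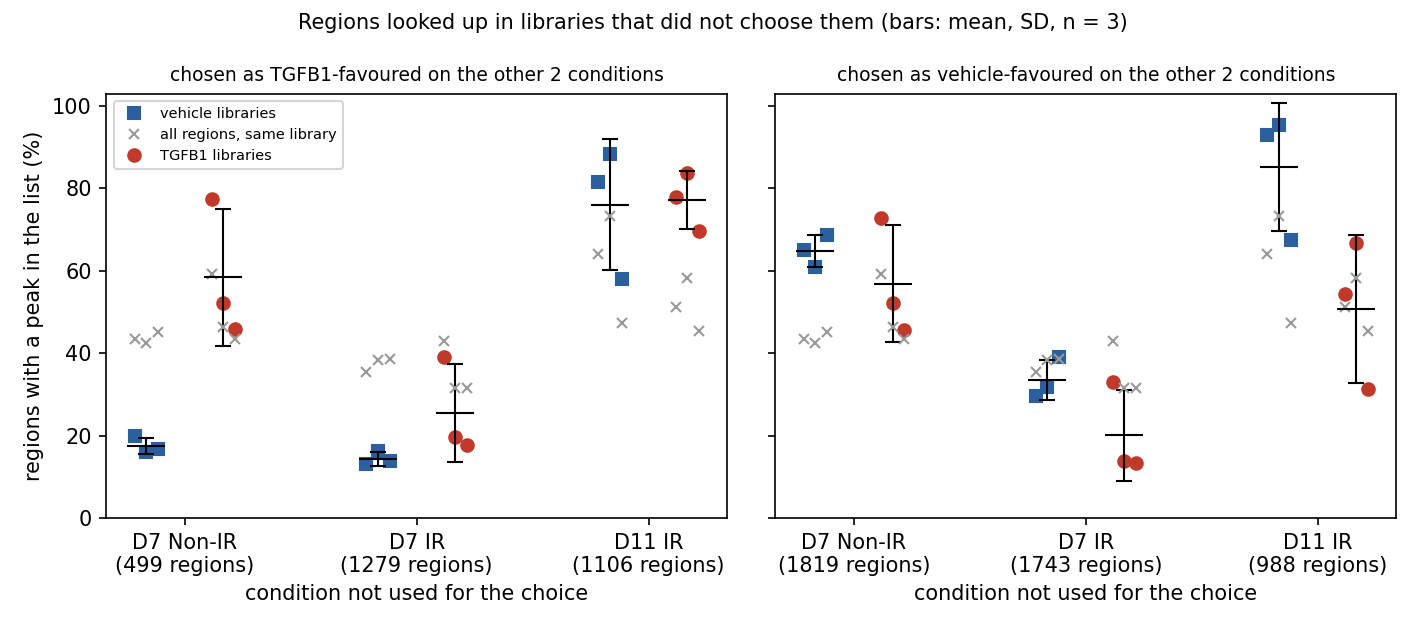
Share of regions with a peak in each library of the condition that had no part in choosing them; squares are vehicle and circles TGFB1 libraries, black marks the mean and SD of 3 libraries, and grey crosses all 59937 regions in the same library. In the left panel the groups are apart at D7 Non-IR (17.6% against 58.5%) and D7 IR (14.4% against 25.5%) and overlap at D11 IR (76.1% against 77.1%); in the right panel they are apart only at D11 IR.

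The vehicle-favoured rule gave its widest difference at D11 IR. With the lists as deposited its held-out differences, TGFB1 minus vehicle, were −7.93 points at D7 Non-IR (exact permutation p = 0.4, adjusted 0.48), −13.4 at D7 IR (p = 0.3, adjusted 0.45) and −34.4 at D11 IR (p = 0.1, adjusted 0.2). With these lists the treatments overlapped at both D7 conditions and did not overlap at D11 IR. With 19907 peaks from every list the differences were −17.0, −8.42 and −21.1 points in the same order, without overlap in any condition (exact permutation p = 0.1 for each). When the choice required all 3 vehicle lists and allowed no TGFB1 list, the D7 Non-IR difference was −33.3 points over 37 regions without overlap, and the D11 IR difference was −47.2 points over 12 regions with overlap. Net of the difference over all regions, the deposited lists gave −14.0, −11.2 and −24.4 points for the vehicle-favoured choice and 34.8, 13.4 and 11.0 for the TGFB1-favoured one. Whether the sets differ in their order of conditions was not tested.

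List length moved with these results. The D11 vehicle lists held 30725 to 49291 peaks and the D11 TGFB1 lists 29332 to 38129, and at D7 Non-IR the list of TGFB1 replicate 1 was the longest. When each list was cut to its 19907 highest-scoring autosomal peaks, the length of the shortest, the held-out difference was 23.7 points at D7 Non-IR, 11.0 at D7 IR and 13.2 at D11 IR. The D11 libraries no longer overlapped: the TGFB1 libraries held 59.5% to 65.7% of 901 regions and the vehicle libraries 48.3% to 50.8% (exact permutation p = 0.1). With only peaks scoring at least 5 the D11 difference was −7.08 points. The sign of the D11 difference thus changed with the way peaks were admitted.

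**Figure D5:**
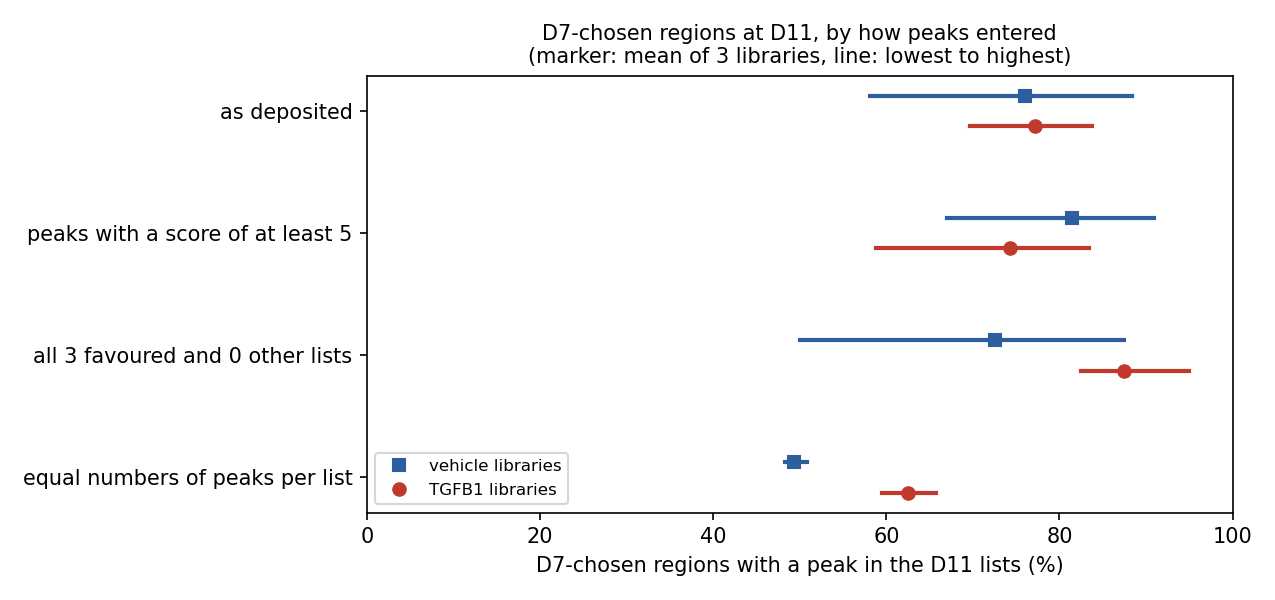
D7-chosen TGFB1-favoured regions in the D11 lists under 4 ways of admitting peaks or regions; markers are means of 3 libraries and lines run from the lowest to the highest. With the lists as deposited the treatments overlap (means 76.1% and 77.1%), and with 19907 peaks from every list the TGFB1 libraries (mean 62.5%) lie above the vehicle libraries (mean 49.3%).

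The choice of single regions was more sensitive than these shares. With equal numbers of peaks the rule chose 340 regions, of which 16.5% overlapped the 356, and 56 of the 356 (15.7%) were found again. Their vehicle peaks were also spread differently, with 38.5% in D11 lists against 33.8% for all regions. With peaks scoring at least 5 the rule chose 190 regions and 79 of the 356 (22.2%) were found again. Requiring all 3 TGFB1 lists in each condition left 46 regions, allowing at most 1 vehicle list left 88, and allowing at most 1 vehicle list in each condition left 128.

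Single libraries also set the number. Without D7 IR TGFB1 replicate 1 the rule chose 138 regions, without D7 Non-IR TGFB1 replicate 1 it chose 186, and without D7 IR TGFB1 replicate 2 or 3 it chose 216 or 228. Without D11 IR vehicle replicate 1 or 2 it chose 605 or 606. In these counts the remaining pair of lists had to hold a peak, or 1 fewer vehicle list could.

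Choosing on 2 replicates of every group and looking up the one left out gave the following shares. With replicate 1 left out, 87 regions were chosen. At D7 Non-IR the left-out libraries held 94.3% of them with TGFB1 and 27.6% with vehicle, at D7 IR 82.8% and 20.7%, and at D11 IR 90.8% and 78.2%. With replicate 2 left out (158 regions) the shares were 78.5% and 28.5%, 57.6% and 19.6%, and 93.7% and 86.7% in the same order. With replicate 3 left out (186 regions) they were 71.0% and 28.0%, 59.7% and 17.2%, and 80.6% and 52.2%. The TGFB1 library held the larger share in all 9 pairs, D11 IR included, where the choice had used the other D11 libraries. The gap was smallest at D11 IR for each replicate. Over all regions the left-out D11 IR libraries held 51.2% with TGFB1 and 64.0% with vehicle for replicate 1, 58.2% and 73.2% for replicate 2, and 45.5% and 47.4% for replicate 3.

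What the regions shared beyond the rule concerned their size, rank and position. Their median width was 744 bp (627 to 1533), against 728 bp for vehicle-favoured regions and 725 bp for 10424 other regions found in 6 to 12 lists. The distance between the outermost peak centres in a region had a median of 142 bp. None of the 356 had a mean percentile above 75 in its TGFB1 lists: the median was 33.1, the range 9.91 to 65.1, and 30 regions exceeded 50. The highest score of a region had a median of 12.1 (5.55 to 36.6), against 39.5 for the 11329 regions present in all 18 lists. The vehicle-favoured regions were alike in this, with a median mean percentile of 32.0, none above 75 and a median highest score of 11.5, and the other regions in 6 to 12 lists had a median highest score of 10.9. Low to middle rank was thus not particular to the TGFB1-favoured regions.

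They lay somewhat farther from the constant peaks than comparable regions did. The median distance to the nearest region present in all 18 lists was 46.8 kb (interquartile range 18.4 to 116). It was 31.8 kb (12.7 to 84.3) for vehicle-favoured regions and 35.1 kb (13.4 to 85.3) for other regions in 6 to 12 lists. The median number of lists was 10 in both favoured sets and 8 in the other regions. Within 10 kb of such a region were 15.2% of the TGFB1-favoured, 19.8% of the vehicle-favoured and 19.01% of the other regions. Over all 59937 regions the share was 17.6%. These are descriptions over regions, which are not replicates.

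Most of the regions stood alone. With regions linked when their centres were no more than 100 kb apart, 319 of the 356 were single and 37 fell into 17 groups. The 3 groups of 3 spanned chr18:80745323-80821346, chr2:173081239-173175666 and chr9:70689828-70830056, with 5, 12 and 11 regions of any kind inside. The closest pairs were at chr9:123146677-123153654, chr15:38391402-38398510 and chr18:39550376-39557562, each within 7.19 kb and with no other region between them. The vehicle-favoured set had 46 groups holding 97 of its 620 regions, and 26 of the 356 lay within 100 kb of a vehicle-favoured region. By chromosome, the number per 1000 merged regions ran from 3.33 on chromosome 8 to 8.79 on chromosome 18.

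Genes beside the regions and transcription factor motifs within them were not analysed here, because the annotation used was of another genome build. The RNA-seq libraries of the same conditions instead show whether the pathway was active and which factors that bind DNA with SMADs, or that act in intestinal epithelium, were expressed. Levels are FPKM, fragments scaled to transcript length and library size, and log2 changes are of FPKM + 1, fitted with limma over each condition's whole table. Of 45 listed genes, 37, 36 and 38 were tested at D7 Non-IR, D7 IR and D11 IR. Of these, 26, 26 and 25 were higher with TGFB1 (70.3%, 72.2% and 65.8%; all genes 33.3%, 35.8% and 32.3%) and 7, 6 and 7 were lower (all genes 34.9%, 39.7% and 31.6%). The listed genes were chosen with earlier results of these data known, so nothing is read from their distance to all genes. Of all genes, 68.2%, 75.5% and 63.9% passed a limma adjusted p of 0.05 in either direction. Whether close replicates or broad changes account for shares this large was not tested.

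Among 13 tested ligands, receptors, SMADs and feedback genes of the pathway, 11, 10 and 10 rose in the 3 conditions and none fell. Pmepa1, a target that restrains the pathway, had 4.22, 3.85 and 4.59 FPKM in D7 Non-IR vehicle libraries and 104.7, 104.0 and 98.2 with TGFB1. Its log2 changes were 4.31, 4.46 and 3.92 in the 3 conditions (SE 0.05, 0.04 and 0.11, limma adjusted p 2.5e-12, 1.8e-12 and 1.7e-08), with no overlap of groups. Smad7, an inhibitory SMAD, went from 3.51 to 20.7 FPKM at D7 Non-IR, from 2.76 to 15.2 at D7 IR and from 2.62 to 5.70 at D11 IR (means of 3). The ligand Tgfb1 itself rose at D7 Non-IR (9.95 to 28.3 FPKM) and at D7 IR (3.43 to 33.5), and its D11 IR means were 14.3 with vehicle and 13.3 with TGFB1 (limma adjusted p = 0.486, groups overlapping).

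Of 7 tested AP-1 genes 6, 7 and 5 rose, and of 6 TEAD and YAP genes 5 rose in each condition, with none falling in either list. Fosl1, an AP-1 subunit, went from a mean of 0.774 to 7.42 FPKM at D7 Non-IR, from 2.56 to 21.2 at D7 IR and from 1.16 to 18.1 at D11 IR. Tead4, a partner of YAP, went from 1.26 to 8.74, from 1.35 to 7.48 and from 2.67 to 19.1 FPKM. Runx1 rose in all 3 conditions, from 2.69 to 12.7, 2.88 to 20.3 and 4.55 to 12.3 FPKM, and Runx2 reached the level for testing at D11 IR only (0.0407 to 2.99 FPKM). Both are RUNX factors, which can bind DNA together with SMADs.

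Of the intestinal epithelial factors, 3 rose and 7 fell at D7 Non-IR (10 tested), 3 rose and 6 fell at D7 IR (9 tested), and 3 rose and 7 fell at D11 IR (10 tested). Cdx2, which specifies intestinal identity, fell from 144 to 90.5, from 119 to 92.4 and from 138 to 106 FPKM. Hnf4g, a regulator of enterocyte genes, fell from 36.2 to 14.6, from 92.3 to 71.2 and from 48.0 to 28.2 FPKM. Klf5 and Elf3 went the other way in all 3 conditions. Klf5 rose from 129 to 186, from 281 to 360 and from 307 to 377 FPKM. Elf3 rose from 389 to 585, from 206 to 312 and from 244 to 303 FPKM. Isx rose from 0.291 to 2.74 FPKM at D7 Non-IR and from 0.0856 to 77.2 at D11 IR, and was not tested at D7 IR. Whether any of these factors binds the 356 regions was not tested.

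Markers of other cell types were low in the RNA, apart from Cd14 and Lyz2 of the immune list. The summed level of 6 epithelial markers was 2468 to 2820 FPKM in vehicle libraries of the 3 conditions. With TGFB1 it was 6266 to 6503 at D7 Non-IR, 6355 to 6781 at D7 IR and 2599 to 2959 at D11 IR. All 5 fibroblast markers were under 1 FPKM in every library, with a summed level of at most 0.623. Dcn was at 0 throughout D7 Non-IR and D11 IR, and Col3a1 throughout D7 IR and D11 IR. The endothelial, smooth muscle and nerve markers of any library summed to at most 0.444 FPKM in each list. The 4 immune markers summed to 10.1 to 16.6 FPKM with vehicle and 18.8 to 46.7 with TGFB1, mostly from Cd14. The leukocyte marker Ptprc reached at most 0.0726 FPKM in any library and the T cell marker Cd3e at most 0.0471. Lyz2 ran from 2.57 to 3.47 FPKM with vehicle and from 8.48 to 9.27 with TGFB1 at D7 IR. At D11 IR its ranges were 1.76 to 3.82 and 3.73 to 7.14, and at D7 Non-IR it stayed at or below 0.577. The epithelial sum was higher with TGFB1 at day 7, and its part in the result was not tested. Its members went both ways: Krt8, Epcam, Cdh1, Vil1 and Krt20 were higher with TGFB1 in both D7 conditions and Cdx2 lower, each without overlap. Krt8 ran from 981 to 1023 FPKM with vehicle and from 2914 to 2996 with TGFB1 at D7 Non-IR, the largest contribution to the rise. At D11 IR Epcam, Vil1, Krt20 and Cdx2 were lower with TGFB1 and Krt8 higher, each without overlap, while the Cdh1 ranges overlapped. Epcam there ran from 669 to 690 FPKM with vehicle and from 532 to 630 with TGFB1, and Krt8 from 1049 to 1342 and from 1412 to 1625. In bulk libraries a change in the share of a cell type and a change within its cells cannot be told apart.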

How the data were processed

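ATAC-seq peak lists (18 libraries) and RNA-seq tables (18 libraries) were used. Each deposited peak carries a score, read as −log10 of the q-value because the authors' lists start between 1.30 and 1.38, near the value of a q of 0.05. The submitters' processing notes name Bowtie2, MACS2 2.1.0, bedtools, TopHat2 2.1.0 and Cuffnorm 2.2.1, and the builds mm9, mm39 and GRCm39, without roles. Peaks on chromosome 1 reach position 197175936, past the last gene end of 195291439 in GRCm38, and were read as mm9. The single-cell files were not used here. The RNA values are FPKM as the authors deposited them, without counts.

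Peaks on chromosomes 1 to 19 were merged where they overlapped or touched (pandas 2.3.3, Python 3.11.15). Held-out shares were compared by exact permutation (scipy 1.17.1). Log2(FPKM + 1) was fitted with limma 3.58.1 in R 4.3.3, per condition, leaving out genes averaging under 1 FPKM, with Benjamini-Hochberg adjustment over all genes tested and a threshold of 0.05. Both procedures were checked on simulated data. Regions described singly were the first 10 by TGFB1 minus vehicle lists, ties ordered by mean percentile, any region with all 9 TGFB1 lists and no vehicle list, and the 3 regions of highest mean percentile just inside and just outside the vehicle limit. The members, the gene lists and the tests were chosen with earlier results of these data known. RNA genes were named after their values were seen.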

Additional observations from a re-analysis of the deposited data

Results flagged for a closer look

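Klf4, a factor of differentiated intestinal epithelium in the gene lists used beside the TGFB1-favoured regions, moved in opposite directions between conditions. Its log2 change of FPKM + 1 with TGFB1 was −0.74 at D7 Non-IR, 0.28 at D7 IR and −0.23 at D11 IR, and vehicle and TGFB1 libraries did not overlap in any of the 3. The mean levels were 19.9 and 11.6 FPKM at D7 Non-IR and 15.8 and 19.5 at D7 IR, vehicle first. The difference between conditions was not tested.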

How the results depend on the processing

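The number of TGFB1-favoured regions, 356, moved to 88 with at most 1 vehicle list, 46 with all 3 TGFB1 lists in each condition, 190 with peaks scoring at least 5 and 128 with at most 1 vehicle list in each condition (an alternative chosen after seeing the data). Leaving out each of the 18 libraries gave 138 to 606. The vehicle-favoured number, 620, moved to 128 with at most 1 list of the other treatment, 85 with all 3 favoured lists and 293 with at most 1 other list in each condition, and to 306 to 1021 without single libraries. The D11 IR held-out difference of the TGFB1-favoured choice, 1.05 points, turned to −7.08 with peaks scoring at least 5 and ranged from −7.91 to 7.23 without single libraries; the cause was not tested. The other 5 held-out differences kept their sign under every alternative run, but not their size. With equal peak numbers, the TGFB1-favoured difference at D7 Non-IR was 23.7 and the vehicle-favoured ones were −17.0, −8.42 and −21.1 at D7 Non-IR, D7 IR and D11 IR. With all 3 favoured and no other lists, the TGFB1-favoured difference was 23.8 at D7 IR and 15.0 at D11 IR, and the vehicle-favoured ones −33.3, −7.02 and −47.2. With peaks scoring at least 5, the TGFB1-favoured difference at D7 IR was 7.31. Without single libraries they ranged from 31.4 to 47.2 and 4.34 to 15.1 points for the TGFB1-favoured choice at D7 Non-IR and D7 IR, and from −15.9 to −2.35, −19.9 to −10.0 and −43.3 to −24.6 for the vehicle-favoured choice. Fixed windows of 1 peak width gave 382 and 653 regions. Replicate numbers were shared between groups, and the libraries were treated as unpaired. Same-number deviations correlated at −0.026 to 0.010 in ATAC-seq and −0.086 to 0.21 in RNA-seq. Other-number deviations correlated at −0.034 to 0.043 and −0.17 to 0.20. Whether the numbers mark a pairing was not tested. With the replicate number as a block, the held-out differences were the same, with exact p of 0.25 at D7 Non-IR (40.9 points) and D7 IR (11.2) and 1.0 at D11 IR (1.05) for the TGFB1-favoured choice, where 0.25 is the smallest p possible. The blocked limma fit gave 26, 25 and 23 listed genes higher. The number of listed genes called stayed within 1.5 times under every RNA setting tried (a pseudocount of 0.1, no filter, quantile normalization, each library left out), all added after seeing the data. Tests of neighbouring genes, motifs and single cells were not run, since no genome or annotation of the peak files' build was used here. Presence of a peak depends on sequencing depth, which is not given.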

Other observations

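On the X chromosome, which was left out of the set, 4 of 1469 merged regions met the TGFB1-favoured rule and 21 the reverse rule. The list of D7 Non-IR TGFB1 replicate 2 held no peak on this chromosome, so only the other 2 lists of that group could count there.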
